A study of Rattus norvegicus with 4 samples.

Results

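The proteasome genes described here are those whose single gene symbol on the array begins with Psm, a letter from a to g and a digit. This rule found 46 genes of the 14218 genes with a single-symbol probe set, on 60 of 20832 such probe sets. They were measured in retinal neurospheres, floating spheres of cells grown from dissociated embryonic day 18 retina of Sprague Dawley rats. One condition, called ECCM in the labels, was grown in epidermal growth factor (EGF) plus conditioned medium taken from endothelial cells, which form the inner lining of vessels. The other received EGF alone, so both conditions carried EGF. Each condition had 2 arrays, labelled biological replicates 1 and 2. The retinal cells came from pooled embryos, and a separate pool gave the biological replicate of both conditions. The labels do not say which replicate numbers share a pool, and the spread between replicates is that between 2 pools. The p-values combine this spread with variance shared across genes, and for values as deposited they use the shared variance alone.

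The proteasome is the protease that degrades most proteins tagged with ubiquitin. Its barrel-shaped core particle has outer rings of alpha subunits, which gate the entrance, and inner rings of beta subunits, of which a few cut peptide bonds. The regulatory particle caps the barrel, with a base of ATPases that unfold substrates and a lid that removes ubiquitin. Immune signals such as interferon replace the cutting subunits by inducible ones, and the transcription factors NRF1 and NRF2, encoded by Nfe2l1 and Nfe2l2, bind antioxidant response elements in front of proteasome genes. The proteins it degrades include regulators of the cell cycle and of neurogenesis, and protein degradation was not measured here.

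Of the 46 genes, 44 encode subunits, activators, inhibitors or assembly factors of the proteasome. The other 2, Psmc3ip and Psme3ip1, match the symbol rule by name only, since they encode proteins that interact with a proteasome subunit and an activator, and Psmc3ip acts in meiotic recombination. A further 6 probe sets carry a Psm name beside the name of another gene and were not used, so the catalytic subunit gene Psmb6 and the activator gene Psme3 are not analysed here. The members lie on 18 chromosomes of the rat assembly GRCr8. Psmb8 sits between Tap2 and Tap1 on chromosome 20, with Psmb9 on the other side of Tap1, and Psme1 and Psme2 flank Emc9 on chromosome 15.

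Promoter sequences of 42 members (RefSeq, GRCr8, 250 bases before to 50 after the gene's start) were searched on both strands for the core of the antioxidant response element, TGACNNNGC, because the gene of NRF2 was higher in ECCM neurospheres (values follow below). The letters were found in 7 of 42 member promoters (16.7%) and in 12.1% of all 33469 promoters. The 6 matches that begin more than 50 bases before a gene's start, in 5 genes, are shown in the direction of the gene with the match in capitals. Matches nearer to or beyond the start, in Psma3, Psmd1 and Psmd3, are not shown. Psmb5 encodes a cutting subunit, Psmb2 a beta subunit that does not cut, Psme4 an activator, Psmd1 a scaffold of the regulatory particle and Psmd9 an assembly chaperone.
Psmb5, chr15:32047415-32047455, minus strand: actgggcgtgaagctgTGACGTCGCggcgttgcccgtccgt
Psmb2, chr5:144254974-144255014, plus strand: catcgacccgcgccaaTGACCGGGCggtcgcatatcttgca
Psme4, chr14:108706572-108706612, plus strand: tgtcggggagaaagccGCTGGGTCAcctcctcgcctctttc
Psmd1, chr9:94157790-94157830, plus strand: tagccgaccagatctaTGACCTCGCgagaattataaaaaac
Psmd9, chr12:39018364-39018404, minus strand: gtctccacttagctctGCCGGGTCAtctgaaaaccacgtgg
Psmd9, chr12:39018317-39018357, minus strand: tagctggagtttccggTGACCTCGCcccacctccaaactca
In Psme4 and in the first Psmd9 window the match is on the opposite strand, so the capitals show its complement. In Psmb2 the match overlaps a CCAAT box, the binding letters of the factor NF-Y. CCAAT was found in 22 of 42 member promoters (52.4%) and in 37.5% of all promoters. A match describes letters only and is not a measured binding site. Psmd6, Psmd12, Psmd14 and Psma7 had no entry in the promoter table.

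The deposited values were not equalised between arrays. Their medians over all probe sets were 6.84 and 6.56 log2 in ECCM arrays, against 6.03 and 6.25 log2 in EGF arrays. Each member was therefore compared as ECCM minus EGF under 3 scalings, namely quantile normalized, as deposited and median-centred, with limma across all 11492 genes bright enough to test. A gene is said to have risen or fallen only where its Benjamini-Hochberg adjusted p was under 0.05 in the same direction under all 3. Levels and differences are quantile normalized log2 values unless another scale is named, and errors of differences are limma standard errors (SE, 2 arrays per group). For actin, the 3′ control probe set exceeded the 5′ one, a gap known to grow with RNA degradation, by 1.54 and 1.37 log2 in ECCM arrays, against 1.99 and 2.08 log2 in EGF arrays. For GAPDH the gap was smaller, at 0.19 and 0.18 log2 in ECCM arrays, against 0.31 and 0.30 log2 in EGF arrays. The part of these gaps in the results was not tested. Photoreceptor markers fell in 5 of 6 tested and neuron markers in 3 of 3, while 3 of 6 retinal progenitor markers rose. Among all genes tested, 9.12% rose and 1.78% fell. For 2 of the 6 progenitor markers both ECCM arrays lay below both EGF arrays, with differences down to -0.24 log2. With the replicate number as a block, 4 photoreceptor, 0 neuron and 3 progenitor markers passed. In such bulk samples, fewer cells of a type and less RNA per cell cannot be told apart.

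All 46 members passed the filter on dim probe sets, and 0 of 46 rose or fell. Among all 11492 genes tested, 9.12% rose and 1.78% fell, and among the 2485 genes with a deposited mean of at least 10 log2, 5.43% rose and 2.37% fell. The rule of 3 scalings is stricter for falls than for rises, since deposited ECCM arrays lay higher. Of 1891 genes higher and 1673 lower on quantile normalized values, 1048 rose and 205 fell under all 3 scalings. As deposited 205 genes were lower. With the replicate number as a block, 0 of 46 members again rose or fell, while 8.93% of all genes rose and 0.244% fell. With unadjusted p under 0.05 under all 3 scalings the member count was also 0 in limma. The signs largely fixed these counts, since all 46 deposited differences were above 0 and 40 median-centred ones below 0. Under all 3 scalings, no member could therefore fall at any p, and only 6 could rise. The median difference of the members was 0.07 log2, against 0.00 log2 over all genes tested, and the members ranged from -0.47 to 0.31 log2, with 32 above 0 and 14 below, where 50.4% of all genes were above 0. In deposited values, all 46 differences were above 0 (0.05 to 0.94 log2), with a median of 0.40 log2, against 0.40 log2 over all genes tested. Over genes of at least 10 log2 the deposited median was 0.39 log2 for the members, against 0.31 log2 for all genes.

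Counts on a single scaling depended on which scaling it was. At a limma adjusted p under 0.05, quantile normalized values put 5 members higher and 2 lower, which is 10.9% and 4.35% of members, where 16.5% and 14.6% of all genes were. As deposited 23 members were higher and 0 lower, where 40.4% and 1.78% of all genes were. With median-centred arrays 0 were higher and 13 lower, where 10.2% and 32.2% of all genes were. Deposited and median-centred values thus gave the members opposite directions, and the medians of all genes, 0.40 and -0.16 log2, were opposite too. Both ECCM arrays lay above both EGF arrays for 20 members and below them for 9 after quantile normalization, where 33.6% and 32.6% of all genes did so. As deposited they lay above for 41 members and below for 0, where 70.9% and 5.18% of all genes did so.

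The differences of the members were small. A quantile normalized difference of at least 0.5 log2 in either direction was seen in 0 of 46 members, where 19.2% of all genes tested and 10.9% of the genes with a deposited mean of at least 10 log2 had one. Of the members, 33 were that bright. The SD of the differences was 0.16 log2 over the members and 0.14 log2 over the 33 bright ones, against 0.43 log2 over all genes and 0.32 log2 over all bright genes. For 40 of 46 members the 95% interval of the difference (limma, quantile normalized) lay wholly within 0.5 log2 of 0, against 50.2% of all genes tested. Among bright genes this held for 31 of 33 members, against 77.7% of all. The 6 exceptions were Psmb1, Psmb8, Psmb9, Psmd5, Psme2 and Psmc3ip. These intervals hold on the quantile normalized scale and do not include the choice of scaling. Among bright genes, the smallest rise and fall that passed under all 3 scalings were 0.51 and -0.65 log2, so differences of the size seen in the members lay under what passed among genes as bright.

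**Figure D1:**
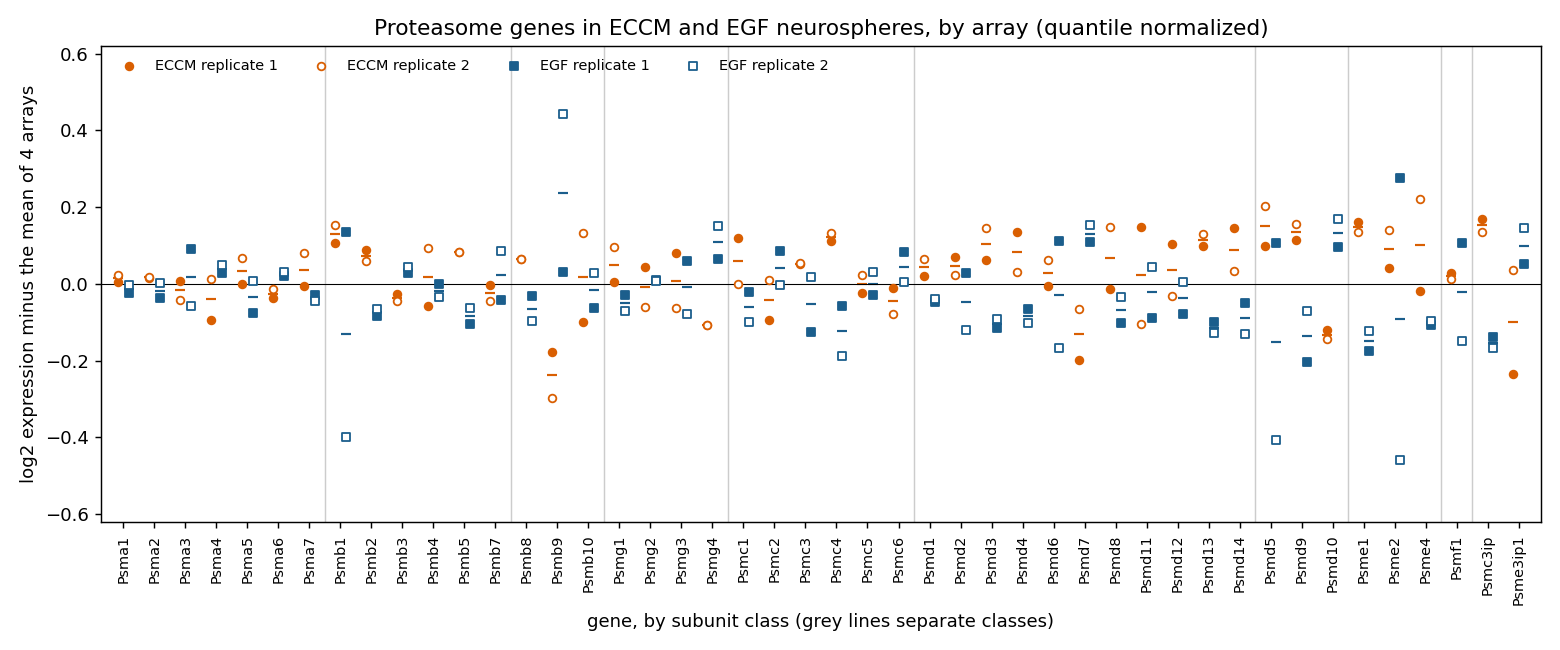
Quantile normalized log2 expression of each proteasome gene on each array, minus that gene's mean over 4 arrays (vertical axis, log2), with ECCM arrays as circles left of EGF arrays as squares and short lines at the group means. EGF replicate 2 lies low for Psmb1, Psmd5 and Psme2.

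In the alpha ring of the core particle, no gene differed by more than 0.08 log2. Psma6, an alpha subunit, had 12.44 and 12.46 log2 in ECCM arrays, against 12.50 and 12.51 log2 in EGF arrays. Psma4, another alpha subunit, had 11.02 and 11.13 log2 in ECCM arrays, against 11.15 and 11.17 log2 in EGF arrays. Psma7, at the other end of the class, had 11.50 and 11.59 log2 in ECCM arrays, against 11.48 and 11.46 log2 in EGF arrays. The groups do not overlap for any of these genes, with ECCM lower for Psma6 and Psma4 and higher for Psma7. Of the 7 alpha genes, 3 had both ECCM arrays above both EGF arrays and 2 below, where 33.6% and 32.6% of all genes did so. Differences of all 7 alpha genes (Psma1 to Psma7) ran from -0.08 to 0.08 log2 with a median of 0.03 log2, and 0 of 7 passed in either direction after quantile normalization.

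In the beta ring, 6 constitutive genes had differences from -0.07 to 0.26 log2. Psmb5, the subunit with chymotrypsin-like activity, had 12.54 and 12.54 log2 in ECCM arrays, against 12.35 and 12.39 log2 in EGF arrays. Its 2 ECCM arrays lay above both EGF arrays, and the difference was 0.17 ± 0.06 log2 (SE; limma adjusted p = 0.0487 quantile normalized, 0.00565 as deposited and 0.486 median-centred). Psmb2, which does not cut, averaged 12.01 ± 0.02 log2 in ECCM arrays and 11.86 ± 0.01 log2 in EGF arrays (SD, n = 2 each; difference 0.15 ± 0.06 log2 SE, limma adjusted p = 0.0880). Psmb7, the subunit with trypsin-like activity, had 10.51 and 10.47 log2 in ECCM arrays, against 10.47 and 10.60 log2 in EGF arrays, and these overlap. Psmb3 and Psmb4, beta subunits without cutting activity, differed by -0.07 and 0.04 log2. Psmb1, also without cutting activity, had 12.12 and 12.17 log2 in ECCM arrays, against 12.15 and 11.61 log2 in EGF arrays, with a difference of 0.26 ± 0.13 log2 (SE). EGF replicate 2 was its low array, and the other EGF array lay between the ECCM arrays.

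The inducible beta subunits, which take the places of the cutting subunits in the immunoproteasome, include the pair of members with the largest standard errors, Psmb8 and Psmb9. Psmb8, which replaces Psmb5, had 4.95 and 4.95 log2 in ECCM arrays, against 4.85 and 4.79 log2 in EGF arrays (0.13 ± 0.28 log2 SE, 95% interval -0.48 to 0.74). Its deposited mean was 5.36 log2 in ECCM arrays, against 4.41 log2 in EGF arrays, and the limit for dim probe sets was 4.77 log2, so it passed that filter through the ECCM arrays. Psmb9, which replaces Psmb6, had 5.29 and 5.17 log2 in ECCM arrays, against 5.50 and 5.91 log2 in EGF arrays. Both ECCM values lay below both EGF values, and the difference of -0.47 ± 0.24 log2 (SE, limma adjusted p = 0.166) was the lowest of all members, while it was 0.27 log2 as deposited. Psmb10, which replaces Psmb7, had 7.29 and 7.52 log2 in ECCM arrays, against 7.33 and 7.42 log2 in EGF arrays, and the groups overlap. Thus 0 of 3 passed under any of the 3 scalings.

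Genes of antigen processing and interferon signalling were set beside them. Of 9 tested, 2 rose and 0 fell, with a median of 0.36 log2, where 9.12% of all genes rose and 1.78% fell. Differences were above 0 for 6 and below 0 for 3, with Ifnar1 the lowest. Ifnar1 differed by -0.55 ± 0.12 log2 (SE; limma adjusted p = 0.00471 quantile normalized, 0.577 as deposited and 0.00105 median-centred). Both ECCM arrays of Ifnar1 lay below both EGF arrays. B2m, the light chain of MHC class I molecules that present proteasome products, had 11.30 and 11.29 log2 in ECCM arrays, against 10.35 and 10.47 log2 in EGF arrays, and rose by 0.89 ± 0.07 log2 (SE, 1.85-fold, limma adjusted p = 1.36e-05). Erap1, the aminopeptidase that trims peptides in the endoplasmic reticulum, had 8.91 and 8.95 log2 in ECCM arrays, against 8.42 and 8.40 log2 in EGF arrays, and rose by 0.52 ± 0.09 log2 (SE, limma adjusted p = 0.00166). Its call was lost with the mean of its probe sets (0.26 log2), without an intensity trend in limma, and without ECCM replicate 1, ECCM replicate 2 or EGF replicate 2. The mean of the Erap1 probe sets includes 1 with a deposited mean of 2.81 log2, under the dim limit, which gave -0.05 log2. The other Erap1 probe set, at 8.12 log2, gave 0.31 log2. The peptide transporter genes beside Psmb8 and Psmb9 did not pass under any scaling, with -0.21 ± 0.22 log2 for Tap1 and -0.29 ± 0.16 log2 for Tap2 (SE). In the same arrays 7 of 11 tested microglia and leukocyte markers and 7 of 8 mesenchymal markers rose, and 2 of 13 and 2 of 10 on the array were too dim to test. Of those that rose, 3 and 2 had an EGF mean under the dim limit and were tested only through their ECCM level. Among markers with an EGF mean above that limit, 4 of 7 and 5 of 5 rose. The summed deposited level of the microglia and leukocyte list was 10.80 and 10.60 log2 in ECCM arrays, against 9.09 and 9.45 log2 in EGF arrays, and that of the mesenchymal list 11.41 and 11.24 log2 in ECCM arrays, against 9.33 and 9.26 log2 in EGF arrays. Of 7 endothelial markers on the array, Pecam1, Tek, Tie1 and Emcn were too dim to test and 0 rose. The 3 tested differed by -0.09 to 0.67 log2, and 1 was higher on quantile normalized values alone. Their list's summed deposited level was 12.70 and 12.49 log2 in ECCM arrays, against 11.77 and 11.99 log2 in EGF arrays. Most of this sum came from 1 gene with a mean of 12.20 log2, since the list's median level was 3.86 log2. As deposited, the median difference over all genes tested was itself 0.40 log2, which bears on all of these sums. Of 4 lens markers 2 were too dim and 0 rose. The part of other cell types in these results was not tested.

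**Figure D2:**
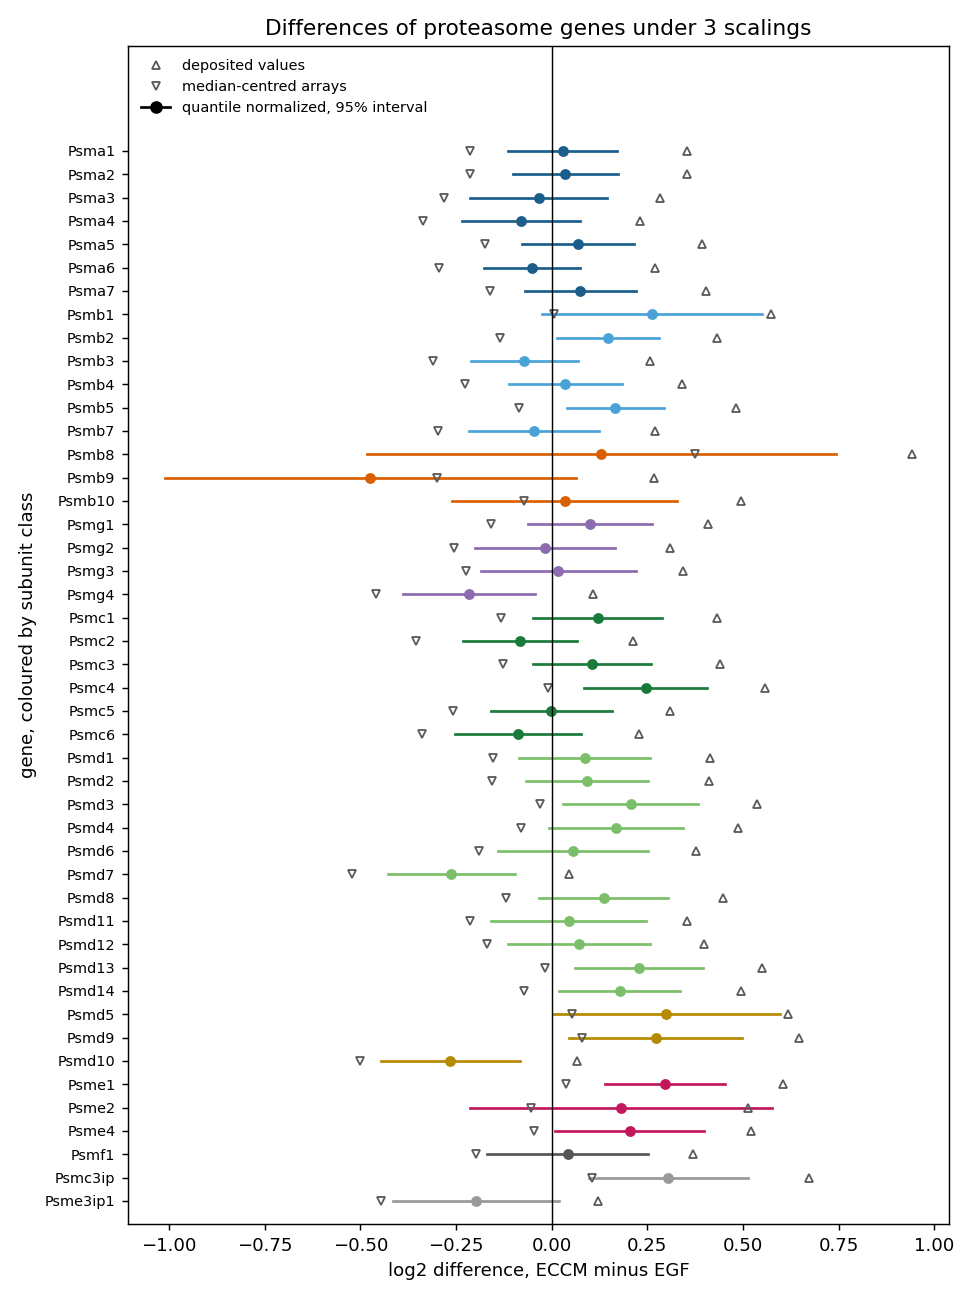
Log2 difference, ECCM minus EGF (horizontal axis), for each proteasome gene, with filled points for quantile normalized values and lines for their 95% limma interval, upward triangles for deposited and downward triangles for median-centred values. Deposited differences lie above 0 for all 46 genes and median-centred differences below 0 for 40 of them, while quantile normalized differences run from -0.47 to 0.31 log2.

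Assembly of the core particle depends on the chaperone pairs Psmg1 with Psmg2 and Psmg3 with Psmg4. Psmg4 had 9.93 and 9.93 log2 in ECCM arrays, against 10.10 and 10.19 log2 in EGF arrays (-0.22 ± 0.08 log2 SE, limma adjusted p = 0.0575). Both ECCM values were lower, and the deposited difference was 0.11 log2. Its partner Psmg3 had 9.69 and 9.55 log2 in ECCM arrays, against 9.67 and 9.53 log2 in EGF arrays, which overlap. Psmg1 differed by 0.10 log2 and Psmg2 by -0.02 log2.

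The ATPase base of the regulatory particle, Psmc1 to Psmc6, had differences from -0.09 to 0.25 log2 with a median of 0.05 log2. Psmc4 had 11.11 and 11.13 log2 in ECCM arrays, against 10.94 and 10.81 log2 in EGF arrays, and its difference was 0.25 ± 0.07 log2 (SE; limma adjusted p = 0.0261 quantile normalized, 0.00334 as deposited and 0.946 median-centred). Psmc5 had 10.63 and 10.68 log2 in ECCM arrays, against 10.63 and 10.69 log2 in EGF arrays. Psmc2 had 11.79 and 11.90 log2 in ECCM arrays, against 11.97 and 11.89 log2 in EGF arrays. Psmc4 was thus the sole ATPase gene past the threshold after quantile normalization, and the groups of Psmc2 and Psmc5 overlap. The remaining ATPase genes, Psmc1, Psmc3 and Psmc6, differed by 0.12, 0.11 and -0.09 log2.

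Among the 11 other subunit genes of the regulatory particle, 10 had a difference above 0 and 1 below. The exception was Psmd7, the lid partner of the deubiquitinase, with 10.59 and 10.73 log2 in ECCM arrays, against 10.90 and 10.95 log2 in EGF arrays. Its difference was -0.26 ± 0.08 log2 (SE; limma adjusted p = 0.0221 quantile normalized, 0.822 as deposited and 0.00174 median-centred), and its second probe set gave 0.07 log2. Psmd14, the deubiquitinase that works in a pair with Psmd7, had 11.41 and 11.30 log2 in ECCM arrays, against 11.22 and 11.14 log2 in EGF arrays (0.18 ± 0.07 log2 SE, limma adjusted p = 0.0823). For the brightest probe set of both genes the ECCM and EGF arrays do not overlap, with opposite order. The other Psmd14 probe sets gave -0.0018 and 0.10 log2, with overlapping arrays. Psmd13, a lid subunit, had 10.17 and 10.20 log2 in ECCM arrays, against 9.97 and 9.94 log2 in EGF arrays. Its difference was 0.23 ± 0.08 log2 (SE; limma adjusted p = 0.0427 quantile normalized, 0.00652 as deposited and 0.897 median-centred). The ubiquitin receptor Psmd4 differed by 0.17 ± 0.08 log2, the scaffold subunits Psmd1 and Psmd2 by 0.09 log2 each, and the lid subunits Psmd3, Psmd6, Psmd8, Psmd11 and Psmd12 by 0.04 to 0.21 log2.

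Psmd5, Psmd9 and Psmd10 encode chaperones that assemble the ATPase base and leave the finished particle. Psmd10, also known as gankyrin, had 9.48 and 9.46 log2 in ECCM arrays, against 9.70 and 9.77 log2 in EGF arrays. Its difference was -0.27 ± 0.08 log2 (SE; limma adjusted p = 0.0314 quantile normalized, 0.761 as deposited and 0.00150 median-centred). Psmd9 had 8.47 and 8.51 log2 in ECCM arrays, against 8.15 and 8.28 log2 in EGF arrays (0.27 ± 0.10 log2 SE, limma adjusted p = 0.0673), and -0.13 log2 for its second probe set. Psmd5 had 10.58 and 10.68 log2 in ECCM arrays, against 10.59 and 10.07 log2 in EGF arrays. The 3 chaperones thus differed in sign, and Psmd5 passed under all 3 scalings only when EGF replicate 1 was left out (0.56 log2), while it differed by 0.04 log2 without EGF replicate 2.

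The activators cap the core particle in place of the regulatory particle. Psme1, a subunit of the interferon-inducible PA28 cap, had 10.79 and 10.76 log2 in ECCM arrays, against 10.45 and 10.50 log2 in EGF arrays. Its difference of 0.30 ± 0.07 log2 (SE, 1.23-fold) had the lowest adjusted p of the members after quantile normalization (limma adjusted p = 0.00919, and 0.00177 as deposited), but not with median-centred arrays (0.04 log2, adjusted p = 0.762). Psme2, the other PA28 subunit, had 9.71 and 9.81 log2 in ECCM arrays, against 9.94 and 9.21 log2 in EGF arrays. The EGF arrays of Psme2 lie on either side of both ECCM arrays, and it passed under all 3 scalings only when EGF replicate 1 was left out (0.55 log2), while it differed by -0.18 log2 without EGF replicate 2. Psme4, the nuclear activator PA200, had 10.45 and 10.69 log2 in ECCM arrays, against 10.36 and 10.37 log2 in EGF arrays (0.20 ± 0.09 log2 SE), while its other probe sets gave -0.16 and 0.28 log2. Psmf1, an inhibitor and assembly factor of the core particle, differed by 0.04 ± 0.10 log2 (SE).

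The genes named for interacting with proteasome proteins differed in opposite directions. Psmc3ip had 8.77 and 8.73 log2 in ECCM arrays, against 8.46 and 8.43 log2 in EGF arrays. Its difference of 0.31 ± 0.09 log2 (SE; limma adjusted p = 0.0311 quantile normalized, 0.00244 as deposited and 0.444 median-centred) was the highest of the 46. Psme3ip1, an interactor of the activator Psme3, differed by -0.20 ± 0.10 log2 (SE). Without these genes the count that rose or fell was 0 of 44 and the median stayed at 0.07 log2.

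Of 9 tested transcription factors of proteasome genes, 2 rose and 0 fell, where 9.12% of all genes rose and 1.78% fell. Nfe2l2, which encodes NRF2, had 9.96 and 9.95 log2 in ECCM arrays, against 8.79 and 8.96 log2 in EGF arrays, and rose by 1.08 ± 0.09 log2 (SE, 2.12-fold, limma adjusted p = 1.41e-05). Maff, a small MAF protein that binds DNA beside NRF factors, had 6.11 and 6.69 log2 in ECCM arrays, against 5.17 and 5.09 log2 in EGF arrays, and rose by 1.27 ± 0.24 log2 (SE, limma adjusted p = 0.00227), although its call was lost without ECCM replicate 2, EGF replicate 1 or EGF replicate 2. Its deposited mean was 6.70 log2 in ECCM arrays, against 4.73 log2 in EGF arrays, under the dim limit of 4.77 log2, so Maff was tested only through the ECCM arrays. Among the 8 factors with an EGF mean above that limit, Nfe2l2 alone rose. Both genes were higher in each ECCM array than in either EGF array. Nfe2l1, which encodes NRF1, differed by 0.04 ± 0.10 log2 (SE), and Keap1, the adaptor that marks NRF2 for degradation, by 0.03 ± 0.12 log2 (SE). The 7 members whose promoter holds the searched element core differed by -0.03 to 0.27 log2 with a median of 0.17 log2, and the 35 without it had a median of 0.04 log2. For CCAAT the order was the other way, with medians of 0.04 log2 for 22 members with it and 0.09 log2 for 20 without. These medians are a description of 42 genes, and a part of NRF2 in them was not tested. The members with the element core include Psmb5, Psmd9 and Psme4, whose probe sets disagree in sign.

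Other genes of the ubiquitin pathway were counted in the same way. Of 12 tested proteasome partners without a Psm symbol, such as the maturation factor Pomp (0.10 log2) and the deubiquitinase Usp14 (-0.11 log2), 0 rose or fell, with a median of 0.08 log2. Of 13 tested shuttle factors and genes of the p97 system, which extracts ubiquitinated proteins, 0 rose or fell, with a median of -0.16 log2. On quantile normalized values alone 2 of these 13 were higher and 4 lower. Among them Ubqln4, a ubiquilin that carries substrates to the proteasome, differed by 0.61 ± 0.13 log2 (SE) and passed under all 3 scalings with the replicate block, and Faf1, a p97 cofactor, by -0.47 ± 0.09 log2 (SE). Only Uba1 (-0.35 log2) and Uba6 (0.19 log2), the ubiquitin-activating enzymes, had a single-symbol probe set among 6 listed ubiquitin genes and activating enzymes, and neither passed under all 3 scalings. Of 10 genes of the COP9 signalosome, a relative of the lid, and of 8 genes of the CCT chaperonin, another ring complex, 0 rose or fell, with medians of 0.02 and -0.03 log2. Their differences ran from -0.35 to 0.20 and from -0.21 to 0.09 log2, and those of the proteasome partners from -0.33 to 0.28 log2. As among the members, none of these reached 0.5 log2, so small differences were not particular to the proteasome.

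**Figure D3:**
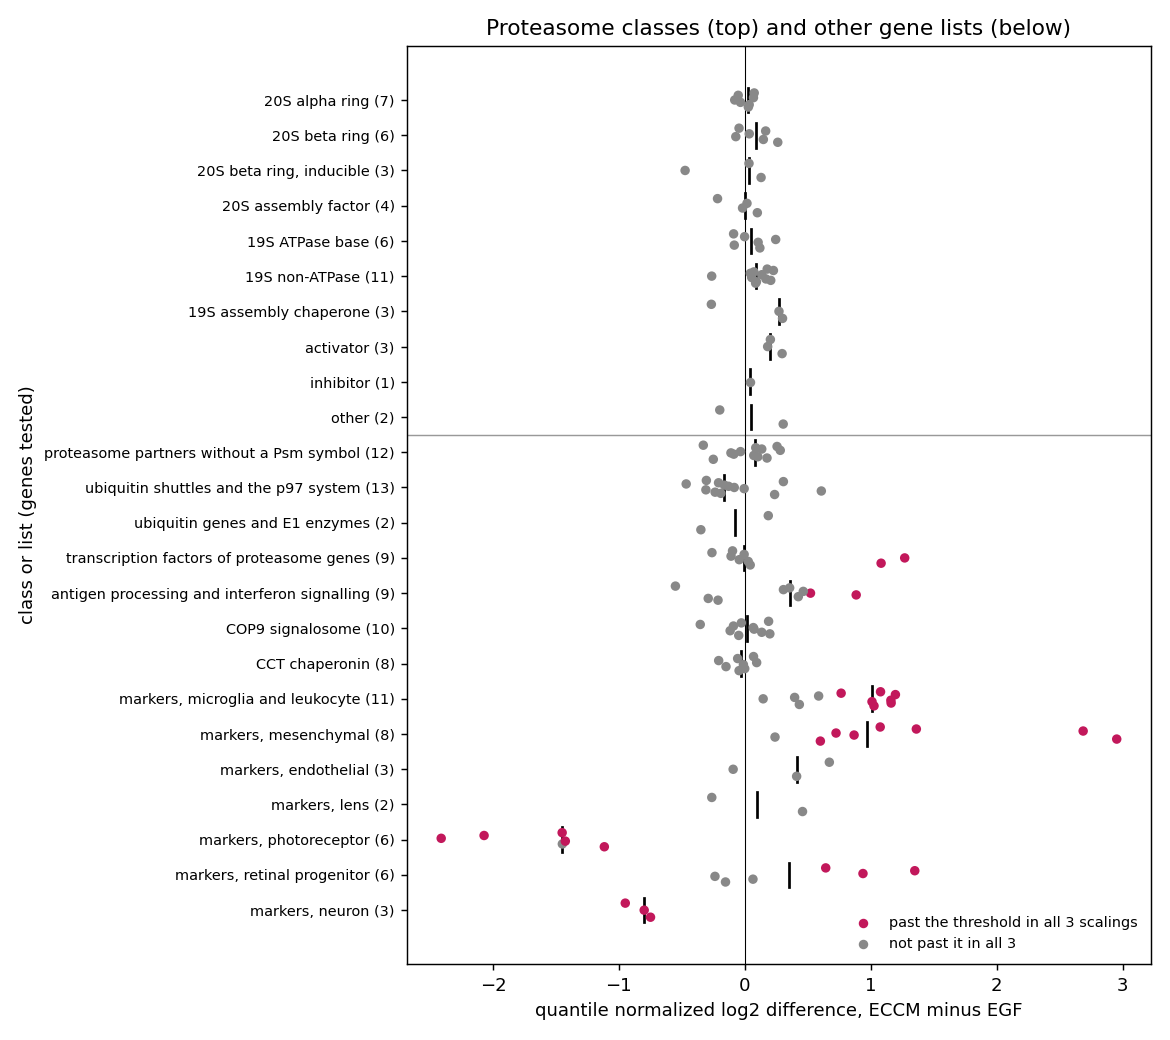
Quantile normalized log2 difference, ECCM minus EGF (horizontal axis), of each tested gene in the proteasome classes above the grey line and in the other gene lists below it, with a black line at the median and coloured points past the threshold under all 3 scalings. No proteasome gene is coloured, Nfe2l2, Maff, B2m and Erap1 are among the coloured genes of the pathway lists, and marker lists reach from -2.41 to 2.95 log2.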

How the data were processed

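Per the series design text and the submitters' processing notes, the authors summarised Affymetrix rat arrays by RMA (robust multi-array average) in GenePattern and deposited log2 values, 1 column per sample. The RMA version and its options are not given in the sources used here. Of 31099 probe sets, 20832 had 1 gene symbol in the platform annotation, 436 had several and 9831 had none. Of the 20832, 20764 matched the RefSeq table of GRCr8 by gene identifier and 0 symbols changed. A gene's value was that of the probe set with the highest mean of 4 arrays, and genes in the lowest 30% of probe set means (under 4.77 log2) were not tested. Quantile normalization and median centring ran over all probe sets.

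The comparison was ECCM minus EGF, in limma 3.58.1 and R 4.3.3 (lmFit, eBayes with an intensity trend, two-sided), without a block. The prior had 8.71 degrees of freedom on quantile normalized and 10.5 on median-centred values. As deposited it was infinite, which leaves no gene a variance of its own there, only that of the trend. The number of arrays limits the precision. The procedure was tested on simulated data. By construction the rule of 3 scalings can miss falls, since the deposited ECCM arrays lie higher. By rule, all members were named, and of the other lists the genes called, at most 6 a list. Usp14, Pomp, Nfe2l1, Keap1, Tap1, Tap2, Ifnar1, Uba1, Uba6, Ubqln4 and Faf1 were named after their values were seen. Members, lists and the rule of 3 scalings were chosen with earlier results of these data known. Alternatives were single scalings, the replicate as a block, each array left out, no dim filter, the mean of a gene's probe sets and no intensity trend.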

Additional observations from a re-analysis of the deposited data

How the results depend on the processing

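The count of 0 proteasome genes higher and 0 lower under all 3 scalings held with the replicate block, without the dim filter and without the intensity trend. It also held with the mean of all probe sets of a gene and without the 2 interacting proteins (the last chosen after seeing the data). The block, the filter and the trend leave each member's differences unchanged. With 46 differences above 0 as deposited and 40 below 0 median-centred, no member could fall in those settings and only 6 could rise. Leaving out 1 array gave 0 to 2 higher and 0 lower, the 2 being Psmd5 and Psme2 without EGF replicate 1. The lone array left in a group was then assumed to vary like the other group. Single scalings gave 23 higher as deposited (median 0.40 log2), 13 lower with median-centred arrays (median -0.17 log2) and 5 higher and 2 lower after quantile normalization. Over all genes, 1048 rose and 205 fell. With the replicate block these were 1026 and 28, without the intensity trend 925 and 130, and with 1 array left out 506 to 850 and 43 to 103. Single scalings gave 4643 and 205 as deposited, 1176 and 3704 median-centred and 1891 and 1673 after quantile normalization. Across genes, arrays that share a number had deviations from their group's mean that correlated at -0.03 quantile normalized and -0.12 as deposited, over only 2 pairs. The design text describes 2 embryo pools but does not tie them to the numbers, so whether the numbers pair the samples is not settled here.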

Other observations

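Of the proteasome genes, 9 had more than 1 probe set above the dim limit, and for 6 of these the quantile normalized differences (ECCM minus EGF) took both signs. The range was -0.42 to 0.17 log2 for Psmb5, where the second probe set had a deposited mean of 5.15 log2 near the dim limit. It was -0.26 to 0.07 log2 for Psmd7, -0.16 to 0.28 log2 for Psme4, -0.13 to 0.27 log2 for Psmd9, -0.13 to 0.01 log2 for Psmc6 and -0.0018 to 0.18 log2 for Psmd14. For Psmc4, Psmd11 and Psme1 all such probe sets gave a difference above 0.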
